A study of Mus musculus with 4 samples.

Results

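Megalin, cubilin and the proteins that work with them form the endocytic apparatus by which the proximal tubule of the kidney takes filtered protein back from the urine. Its 6 genes Lrp2, Cubn, Amn, Dab2, Clcn5 and Fcgrt were selected by symbol and read as raw UMIs, counts of single captured RNA molecules, out of 57132 genes in single-cell RNA sequencing libraries of 4 mouse kidneys. All 4 mice were wild type and were injured by the model named CIAKI, contrast-induced acute kidney injury, in which kidney function falls after exposure to a contrast agent. The libraries form 1 group of biological replicates, labelled as 1 batch. No control mice were analysed here, so each comparison lies between cells of the same injured kidneys, and none of them shows what contrast did. Neither the agent and its amount, nor the hour of collection, nor the age and strain of the mice is stated in the labels. Fresh kidneys were dissociated into single cells before capture.

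Megalin, encoded by Lrp2, is a large receptor of the apical membrane that binds albumin, vitamin-binding proteins, hormones and many drugs. Cubilin, encoded by Cubn, has no membrane anchor of its own and reaches the surface bound to amnionless, the product of Amn. The adaptor Dab2 couples megalin to clathrin-coated pits, the chloride-proton exchanger ClC-5, encoded by Clcn5, serves the acidification of the endosomes that follow, and Fcgrt encodes the heavy chain of the neonatal Fc receptor, which binds albumin and immunoglobulin G at endosomal pH. In humans, loss of CLCN5 causes Dent disease and loss of LRP2 causes Donnai-Barrow syndrome, both with protein of low molecular weight in the urine. Havcr1, which encodes the injury marker KIM-1, is a membrane protein of damaged proximal tubule cells and was used here only to divide these cells into states.

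The 4 libraries held 48213 barcodes and 273788487 UMIs, and 40826 cells were kept. Their median depth was 5549, 5777 and 5655 UMIs in mice 1 to 3, against 2077 in mouse 4. Mouse 4 also had a median ribosomal share of 13.7%, against 1.49% to 2.35% in the others, and shared 1 barcode with the other 3 libraries, which shared 23 to 54 with each other pair by pair. Every result in which mouse 4 stands apart is therefore given with that mouse named. Clustering left out the 6 genes, the other endocytic genes, the injury genes and Havcr1. Clusters were called X-like where at least 3 markers of a type had UMIs in at least 20% of the cells at 2-fold or more, thresholds that were set after the data had been seen. Proximal tubule-like cells numbered 2702, with 423, 185, 789 and 1305 in mice 1 to 4, in 3 clusters that passed on markers of the early segments S1 and S2. Cluster 18 (973 cells) was filled from all 4 mice, while 912 of the 1140 cells of cluster 14 came from mouse 4 and 519 of the 589 cells of cluster 24 from mouse 3.

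Promoter sequence is shown for the 3 genes that were highest together in proximal tubule-like cells and low on average in every other named class, Lrp2, Cubn and Amn. Each window runs from 250 bases before to 50 bases after the transcription start in RefSeq on mouse build GRCm38.p6, written 5′ to 3′ on the gene's own strand, with capitals on the GC box, searched as GGGCGG on both strands, and on the E-box, searched as CACGTG.
Lrp2, chr2:69585980-69586279, minus strand: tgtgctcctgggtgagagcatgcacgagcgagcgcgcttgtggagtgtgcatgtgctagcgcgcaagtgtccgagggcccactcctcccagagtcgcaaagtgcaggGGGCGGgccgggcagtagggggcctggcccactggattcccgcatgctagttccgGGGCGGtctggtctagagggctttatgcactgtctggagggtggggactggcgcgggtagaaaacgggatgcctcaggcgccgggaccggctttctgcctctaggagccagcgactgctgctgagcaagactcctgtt
Cubn, chr2:13491827-13492126, minus strand: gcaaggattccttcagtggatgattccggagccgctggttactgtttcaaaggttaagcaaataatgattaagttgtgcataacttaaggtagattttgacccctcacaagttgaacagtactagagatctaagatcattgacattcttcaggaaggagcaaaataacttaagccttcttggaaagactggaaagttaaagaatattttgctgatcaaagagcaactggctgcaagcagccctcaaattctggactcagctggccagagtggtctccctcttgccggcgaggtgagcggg
Amn, chr12:111270846-111271145, plus strand: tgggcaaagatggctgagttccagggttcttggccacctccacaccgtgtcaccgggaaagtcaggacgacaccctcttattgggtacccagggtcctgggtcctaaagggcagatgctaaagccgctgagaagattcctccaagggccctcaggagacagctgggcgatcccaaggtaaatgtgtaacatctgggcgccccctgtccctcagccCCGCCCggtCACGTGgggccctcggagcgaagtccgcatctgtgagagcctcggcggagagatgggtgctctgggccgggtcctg
All 6 genes were matched in the RefSeq promoter table. The Lrp2 window had a GC content of 65.0%, 20 CpG pairs and GC boxes at -143 and -88 from the start, and the Amn window had 62.3%, 15 CpG pairs, a GC box at -35 and an E-box at -26. The Cubn window differed from both in composition, with a GC content of 44.3%, 5 CpG pairs and none of the motifs searched. Across 32851 windows of the same length the median GC content was 52.7% with 7 CpG pairs, 35.7% held a GC box and 7.15% an E-box, on either strand. The half-site of HNF1, a factor of proximal tubule genes, was searched as GTTAAT on both strands and is held by 7.1% of windows. Among the members the half-site occurred only for Dab2, at -65 in its window chr15:6386498-6386797. The other Dab2 window, chr15:6299539-6299838, had none of the motifs searched. These matches describe letters and say nothing of binding.

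Lrp2, Cubn and Amn, the receptor complex itself, were concentrated in proximal tubule-like cells, and 5 of the 6 genes were higher there than in other tubular-like cells. Levels are given as CPM, the UMIs of a gene scaled to 1 fixed total of UMIs for each class in each mouse. Lrp2 reached 594, 559, 389 and 180 CPM in proximal tubule-like cells of mice 1 to 4, averaging 431 ± 190 (SD, n = 4). In the other 12 named classes its mean lay between 2.12 in intercalated-like and 5.52 in T lymphocyte-like cells, at most 1.28% of the proximal tubule-like mean. Every mouse had its highest level in proximal tubule-like cells, with mouse 4 the lowest of the 4 there.

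Amn reached 113, 62.4, 85.9 and 89.6 CPM in proximal tubule-like cells of mice 1 to 4, averaging 87.7 ± 20.7 (SD, n = 4). Its mean in the other named classes lay between 0.587 and 1.65 CPM, at most 1.88% of the proximal tubule-like mean. Of the 6 genes it varied least from mouse to mouse, and mouse 4 was not low. Cubn reached 154, 118, 42.1 and 26.8 CPM in mice 1 to 4, averaging 85.3 ± 60.9 (SD, n = 4). Mice 3 and 4 were both below mice 1 and 2, so the RNAs of Cubn and Amn did not keep 1 ratio between the mice. The proteins, which are partners at the surface, were not measured.

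Among the named classes other than proximal tubule-like cells, none stood apart from its neighbours for Lrp2 or Amn, since the ranges over mice overlapped from each class to the next in order. For both genes these levels were close to those of Slc34a1, the phosphate transporter of the proximal tubule, in cells that should lack it. As a percentage of the proximal tubule-like level of the same mouse, T lymphocyte-like cells held 1.38 ± 0.825% for Lrp2, 1.02 ± 0.653% for Amn and 1.51 ± 0.525% for Slc34a1 (SD, n = 4). Macrophage- and monocyte-like cells held 0.971 ± 0.401% for Lrp2 and 1.09 ± 0.191% for Slc34a1 (SD, n = 4). UMIs at this level were therefore not read as expression in those cells, and their source was not tested.

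**Figure D1:**
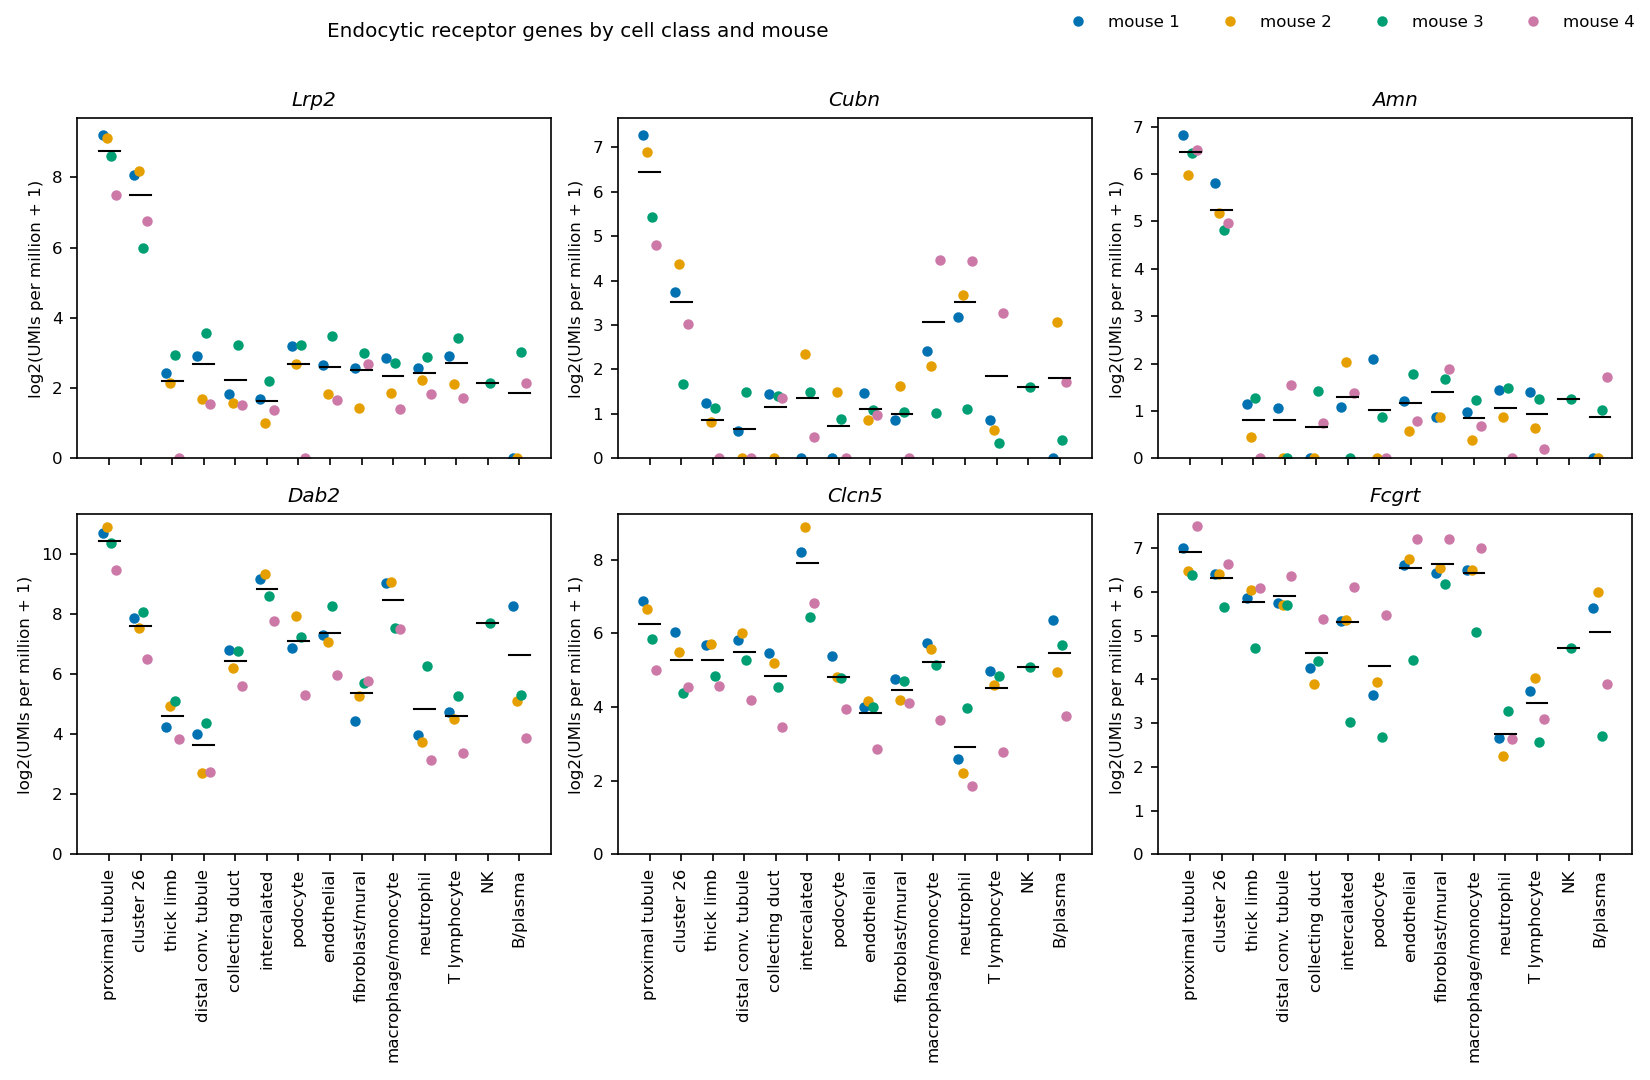
Levels of the 6 genes by cell class, as log2 of CPM plus 1, with 1 point for each mouse and a bar at the log2 of the mean. Lrp2, Cubn and Amn stand highest in proximal tubule-like cells, with cluster 26 next for Lrp2 and Amn, whereas Clcn5 is highest in intercalated-like cells and Fcgrt is spread over tubular, endothelial, stromal and macrophage classes.

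The tests used the summed UMIs of each mouse and class, with the mouse as a block, in edgeR's quasi-likelihood test with Benjamini-Hochberg adjustment over 19299 genes. Against the mean of thick ascending limb-, distal convoluted tubule-, collecting duct- and intercalated-like cells, 17.3% of genes were called higher in proximal tubule-like cells and 12.1% lower, at an adjusted p under 0.05. Lrp2 was higher by 6.92 on the log2 scale (SE 0.23, edgeR adjusted p = 2.45e-27), Cubn by 6.50 (SE 0.55) and Amn by 6.48 (SE 0.32), each in 4 of 4 mice. Dab2 was higher by 4.57 (SE 0.30) and Fcgrt by 1.53 (SE 0.28, edgeR adjusted p = 2.08e-05), in 4 of 4 mice as well. Clcn5 was not called, with a log2 difference of 0.33 (SE 0.23, 95% interval -0.13 to 0.79, edgeR adjusted p = 0.304).

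Dab2 reached 1645, 1918, 1311 and 705 CPM in proximal tubule-like cells of mice 1 to 4, averaging 1394 ± 522 (SD, n = 4). It was not confined to them. Intercalated-like cells, the acid- and base-secreting cells of the collecting duct, held 579, 651, 389 and 217 CPM, and macrophage- and monocyte-like cells 518, 536, 186 and 181. Intercalated-like cells were above macrophage- and monocyte-like cells in 4 of 4 mice, though the 2 ranges overlapped. Endothelial-like cells averaged 165 ± 104 and podocyte-like cells 138 ± 86.0 CPM (SD, n = 4), again with overlapping ranges, and T lymphocyte-like cells averaged 23.5. Against intercalated-like cells alone, where 12.7% of genes were called higher and 11.9% lower, Dab2 was higher in proximal tubule-like cells by 1.68 on the log2 scale (SE 0.44, edgeR adjusted p = 0.00287). Against macrophage- and monocyte-like cells, where 22.2% of genes were called higher and 24.6% lower, it was higher by 1.72 (SE 0.44, edgeR adjusted p = 0.00109). These single-class contrasts were chosen with the levels in view.

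Clcn5 was the exception to the proximal tubule pattern. Proximal tubule-like cells held 117, 99.7, 56.1 and 31.2 CPM in mice 1 to 4, against 296, 469, 86.4 and 113 in intercalated-like cells, which were higher in 4 of 4 mice. The difference, proximal tubule-like over intercalated-like, was -1.62 on the log2 scale (SE 0.30, edgeR adjusted p = 2.88e-05), and the intercalated-like mean was 317% of the proximal tubule-like mean. Intercalated-like cells were also deeper, with a mean of the median depths of 12284 UMIs against 3649 in proximal tubule-like cells. With each cell thinned to 1000 UMIs, 5.81% of proximal tubule-like and 18.4% of intercalated-like cells had a Clcn5 UMI, averaged over mice. In the same order the unthinned shares were 21.6% and 64.3%. Below these classes came distal convoluted tubule-like cells at 43.7 ± 20.6, B lymphocyte- and plasma-like cells at 43.3 ± 29.4 and thick ascending limb-like cells at 38.1 ± 14.9 CPM (SD, n = 4), which did not differ beyond their spread.

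Fcgrt was the most evenly spread of the 6 over kidney cells. Proximal tubule-like cells held 128, 88.5, 83.4 and 181 CPM in mice 1 to 4, against 85.7, 93.1, 71.6 and 147 in fibroblast- and mural-like cells. Endothelial-like cells held 97.5, 107, 20.9 and 146 CPM, and macrophage- and monocyte-like cells 90.04, 90.2, 32.8 and 128. Proximal tubule-like cells were above each of these 3 classes in 3 of 4 mice, with mouse 2 the exception, and all the ranges overlapped. The levels in T lymphocyte-like and neutrophil-like cells were far lower, averaging 10.1 ± 4.71 and 5.74 ± 2.07 CPM (SD, n = 4).

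Against endothelial-like cells, 20.4% of genes were called higher in proximal tubule-like cells and 20.2% lower, and 5 of the 6 members were higher. The log2 differences were 6.50 for Lrp2, 6.11 for Amn, 5.97 for Cubn, 3.12 for Dab2 and 2.40 for Clcn5, with SEs of 0.36, 0.46, 0.75, 0.46 and 0.31. Fcgrt was not called, at 0.53 (SE 0.38, 95% interval -0.22 to 1.29, edgeR adjusted p = 0.272). Against macrophage- and monocyte-like cells 5 of 6 members were higher, with log2 differences of 6.66 for Lrp2 (SE 0.37), 6.57 for Amn (SE 0.47), 3.71 for Cubn (SE 0.69) and 0.88 for Clcn5 (SE 0.29, edgeR adjusted p = 0.0112) beside that of Dab2. Fcgrt was again not called, at 0.38 (SE 0.37, 95% interval -0.37 to 1.13, edgeR adjusted p = 0.434). The Clcn5 call was lost without mouse 1 (edgeR adjusted p = 0.0904) and without mouse 4 (edgeR adjusted p = 0.082), and under 3 other alternatives, with cells thinned to 1000 UMIs (0.112), at clustering resolution 0.5 (0.0774) and without the mouse as a block (0.133).

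Cubn behaved unlike Lrp2 and Amn in leukocytes of mouse 4. In macrophage- and monocyte-like cells it stood at 4.37, 3.22, 1.01 and 21.0 CPM in mice 1 to 4, from 18, 32, 29 and 140 UMIs. In T lymphocyte-like cells it stood at 0.824, 0.550, 0.274 and 8.72 CPM, from 1, 1, 1 and 60 UMIs. Mouse 4 was thus the highest in both classes. As a percentage of the proximal tubule-like level of mouse 4, itself the lowest, Cubn stood at 78.3% in macrophage- and monocyte-like and 32.5% in T lymphocyte-like cells, whereas Lrp2 and Slc34a1 stayed at or below 2.54% and 2.17% in these classes in every mouse. Without mouse 4, the difference of Cubn between proximal tubule-like and macrophage- and monocyte-like cells was 5.07 on the log2 scale. These classes were made of other clusters in mouse 4. Of its 2281 macrophage- and monocyte-like cells 2228 lay in cluster 2, which held 140, 116 and 3 cells of mice 1 to 3. Of its 3465 T lymphocyte-like cells 2200 lay in cluster 4 and 1225 in cluster 13, each with at most 10 cells of any other mouse. Cluster and mouse can therefore not be told apart here. Mouse 4 also differed in depth, ribosomal share and shared barcodes, as given above, and their part in this was not tested.

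In neutrophil-like cells Cubn held 8.07, 11.7, 1.17 and 20.8 CPM in mice 1 to 4, from 128, 266, 11 and 8 UMIs, so that mice 1 and 2 gave most of the molecules. These were 5.23%, 9.93%, 2.79% and 77.4% of the proximal tubule-like levels of the same mice. Lrp2 in the same neutrophil-like cells was at 0.669% to 1.64%, and Slc34a1 at 0.766% to 2.01%. Cubn was still higher in proximal tubule-like than in neutrophil-like cells, by 2.46 on the log2 scale (SE 0.64, edgeR adjusted p = 0.000907) in a contrast where 29.7% of genes were called higher, while Lrp2 was higher by 5.62 (SE 0.36).

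**Figure D2:**
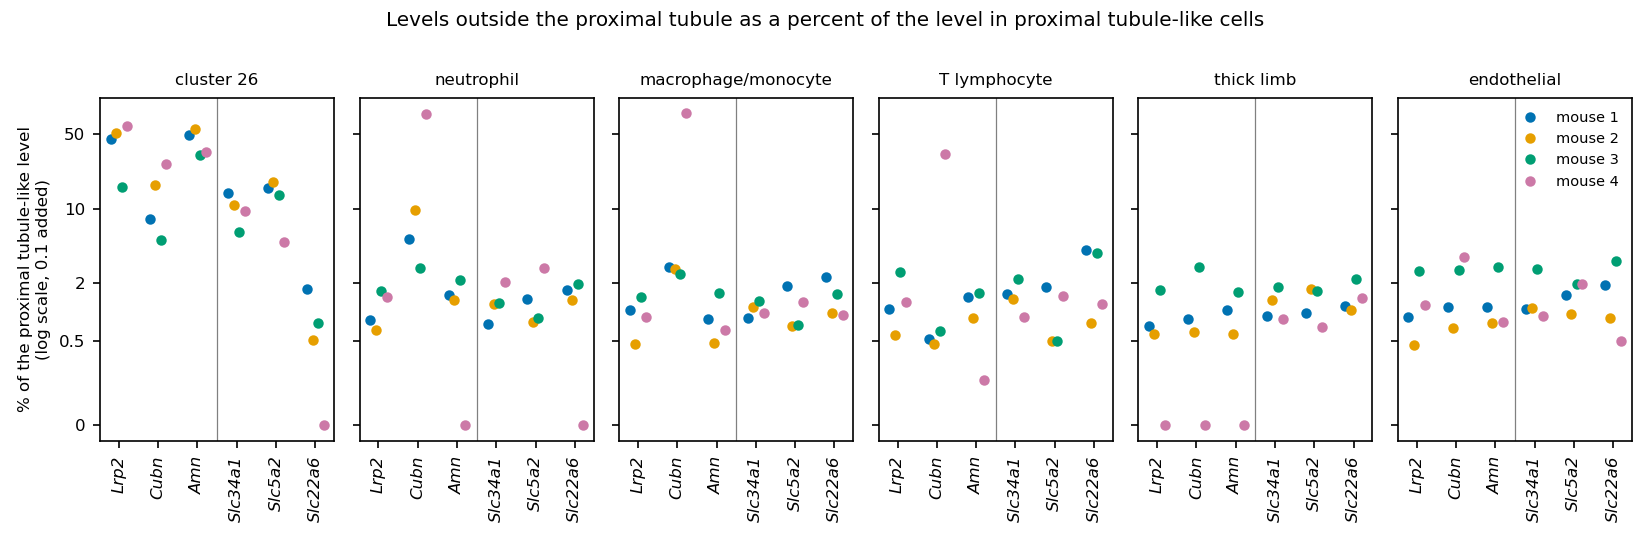
Levels of Lrp2, Cubn and Amn beside those of the proximal tubule transporters Slc34a1, Slc5a2 and Slc22a6, as a percentage of the proximal tubule-like level of the same mouse on a log axis with 0.1 added, for 6 classes. Most points of the leukocyte, thick limb and endothelial panels lie near 1%, apart from Cubn in neutrophil-like cells and in the leukocytes of mouse 4, and in cluster 26 Lrp2 and Amn lie above the 3 transporters on average.

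Cluster 26 held 538 cells, with 87, 79, 215 and 157 in mice 1 to 4, and held Lrp2 and Amn beside lower levels of proximal tubule transporters. Its leading genes were Ankrd1, Cryab, Cp, Ncam1 and Cldn1. It passed on 5 of 5 markers of capsule epithelium, on 6 of the injured tubule markers and on 3 thin limb markers, so it was given no cell type name. It also passed on 2 S1 and S2 markers and 1 S3 marker. With the highest doublet scores left out, the clusters with Ankrd1 among their leading genes held 298 and 147 cells. The larger passed on 4 S1 and S2 markers, the smaller on 6 thin limb markers and 0 of S1 and S2. Cluster 26 may thus hold more than 1 cell type. Lrp2 stood at 269, 286, 63.0 and 107 CPM in cluster 26 of mice 1 to 4, and Amn at 55.1, 35.3, 27.3 and 30.4. Both were below proximal tubule-like cells and above every named class other than these in 4 of 4 mice. Relative to the proximal tubule-like level of the same mouse, cluster 26 held 43.0 ± 18.9% for Lrp2 and 42.7 ± 11.9% for Amn, but 14.1 ± 9.58% for Cubn and 14.2 ± 4.51% for Dab2 (SD, n = 4). Clcn5 stood at 51.6 ± 15.4% and Fcgrt at 68.3 ± 18.1% (SD, n = 4). Transporters of the proximal tubule stood below Lrp2 and Amn on average, at 10.3 ± 3.37% for Slc34a1, 13.1 ± 5.79% for Slc5a2, which takes up glucose, and 0.757 ± 0.719% for Slc22a6, which takes up organic anions. In spite of its injured tubule markers, Havcr1 UMIs were found in 1, 1, 9 and 1 of its cells in mice 1 to 4.

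Within proximal tubule-like cells the clusters differed in a way the mice shared for some members and not for others. Lrp2 was higher in cluster 18 than in cluster 14 in each of the 3 mice with at least 10 cells in both, with 739, 758 and 341 CPM in cluster 18 of mice 1, 2 and 4, against 239, 191 and 82.4 in cluster 14. Cubn followed, with 207, 171 and 54.8 against 33.7, 27.6 and 9.9, and so did Clcn5, with 147, 150 and 49.4 against 53.0, 17.6 and 20.4. Fcgrt ran the other way, with 80.0, 60.3 and 157 CPM in cluster 18 against 186, 121 and 195 in cluster 14. Dab2 was higher in cluster 18 in each of these mice by less, with 1905, 1989 and 958 against 1319, 1856 and 552, and Amn was mixed. These clusters were formed on the genes of the same cells, so no test was made. The part of the unequal mixture of clusters in the differences between mice was not tested.

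**Figure D3:**
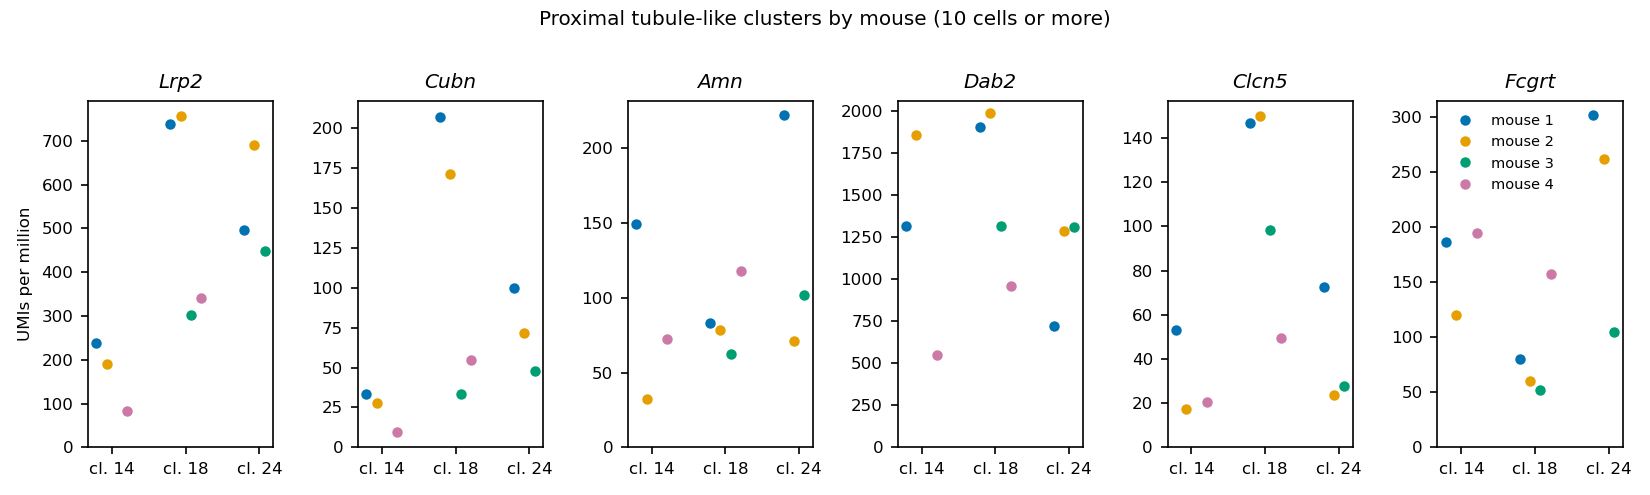
CPM of the 6 genes in the proximal tubule-like clusters 14, 18 and 24, with 1 point for each mouse that had at least 10 cells in the cluster. Lrp2, Cubn and Clcn5 lie higher in cluster 18 than in cluster 14 in mice 1, 2 and 4, and Fcgrt lies lower.

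Detection was also counted cell by cell. After thinning to 1000 UMIs, 29.5% of proximal tubule-like cells had an Lrp2 UMI, 7.66% a Cubn, 9.50% an Amn, 63.0% a Dab2, 5.81% a Clcn5 and 12.0% an Fcgrt UMI, as means over mice. The unthinned shares were 53.9%, 22.7%, 26.04%, 79.4%, 21.6% and 32.7%, at a mean of the median depths of 3649 UMIs. In T lymphocyte-like cells, which should lack megalin and cubilin and had a similar depth of 3824 UMIs, the thinned shares were 0.614%, 0.266%, 0.216%, 2.22%, 2.11% and 0.820%, and the unthinned shares 2.28%, 0.589%, 0.427%, 7.30%, 7.80% and 3.93%. At least 1 of the 6 genes was detected in 79.9 ± 10.2% of thinned proximal tubule-like cells and at least 2 in 36.9 ± 10.4% (SD, n = 4). In T lymphocyte-like cells the corresponding means were 6.02% and 0.223%, and in cluster 26 they were 33.1% and 7.30%.

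Whether injury as marked by Havcr1 went with lower receptor expression was asked within proximal tubule-like cells. Havcr1 UMIs were found in 483 of these cells, 66, 39, 312 and 66 in mice 1 to 4, and in none of the other 2219, with 357, 146, 477 and 1239. None of the 6 genes was called between Havcr1-detected and Havcr1-undetected cells, while 177 of 9921 genes were. Havcr1 was not left out of these counts, although its difference was fixed by the way the states were set. Havcr1 itself, which set the states, stood at 399, 416, 585 and 353 CPM in the detected cells of mice 1 to 4. Detected cells were deeper in every mouse, with median depths of 7002, 8486, 5981 and 4028 UMIs, against 3393, 4109, 2608 and 1858 in undetected cells. A cell with more UMIs is more likely to show Havcr1, so the states also divide cells by depth. They differ in their mixture of clusters as well. Havcr1 UMIs were found in 4.32% and 7.32% of cluster 14 cells of mice 1 and 2. Over all proximal tubule-like cells of these mice they were found in 66 of 423 and 39 of 185. The part of this mixture in the state differences was not tested.

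Lrp2 stood at 526, 561, 357 and 143 CPM in Havcr1-detected cells of mice 1 to 4, against 617, 559, 423 and 184 in undetected cells. It was lower in 3 of 4 mice and level in mouse 2, and the log2 fold change was -0.33 (SE 0.16, 95% interval -0.67 to 0.00015, edgeR adjusted p = 0.278). Cubn stood at 91.7, 125, 44.8 and 9.72 CPM in detected cells, against 176, 115, 39.3 and 28.5 in undetected cells. The detected cells of mouse 4 held 3 UMIs of Cubn. Mice 1 and 4 were lower and mice 2 and 3 slightly higher, with a log2 fold change of -0.46 (SE 0.23, 95% interval -0.93 to 0.02, edgeR adjusted p = 0.298). Amn stood at 139, 79.8, 77.6 and 113 CPM in detected cells, against 104, 54.9, 94.7 and 87.2 in undetected cells. It was higher in 3 of 4 mice, with a log2 fold change of 0.07 (SE 0.18, 95% interval -0.30 to 0.44, edgeR adjusted p = 0.885).

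Dab2 stood at 1667, 1974, 1246 and 658 CPM in Havcr1-detected cells of mice 1 to 4, against 1637, 1893, 1379 and 710 in undetected cells. The states differed little beside the differences between mice, with a log2 fold change of -0.18 (SE 0.16, 95% interval -0.51 to 0.16, edgeR adjusted p = 0.612). Clcn5 stood at 124, 142, 63.9 and 38.9 CPM in detected cells, against 114, 81.0, 48.0 and 30.5 in undetected cells. It was the only member that was higher in detected cells of 4 of 4 mice, but its log2 fold change of 0.28 was not called (SE 0.18, 95% interval -0.10 to 0.65, edgeR adjusted p = 0.441). Fcgrt stood at 144, 79.8, 69.3 and 230 CPM in detected cells, against 123, 92.3, 98.2 and 176 in undetected cells. It was higher in mice 1 and 4 and lower in mice 2 and 3, with a log2 fold change of -0.16 (SE 0.17, 95% interval -0.52 to 0.21, edgeR adjusted p = 0.695).

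**Figure D4:**
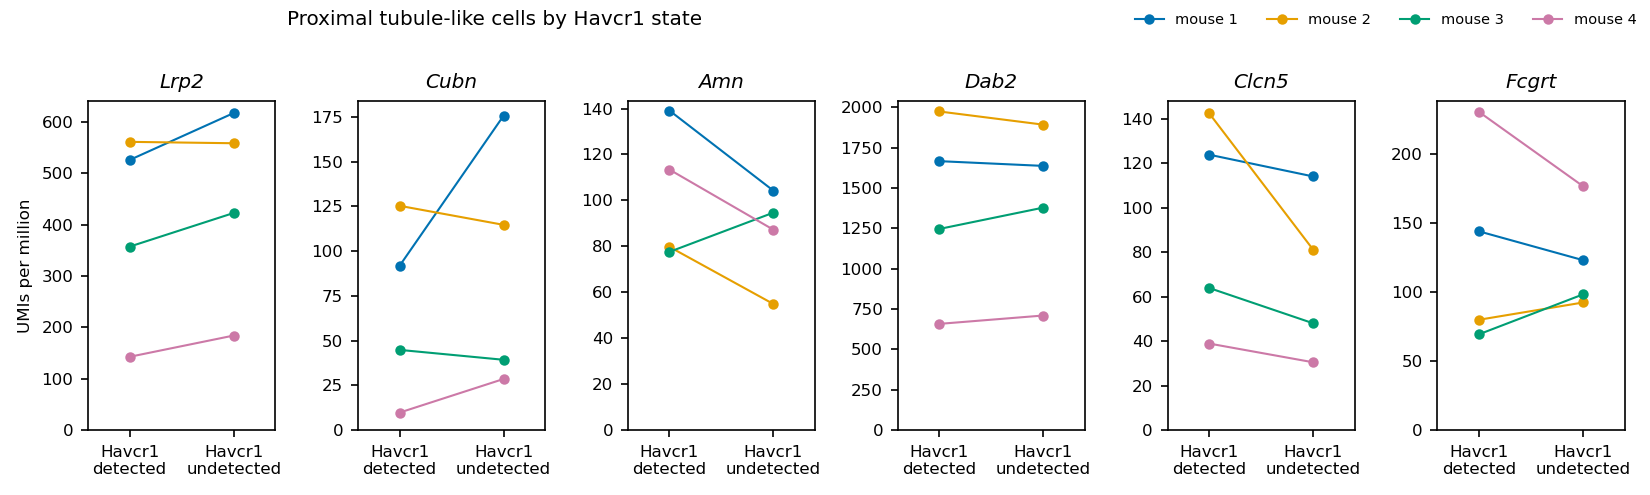
CPM of the 6 genes in Havcr1-detected (left) and Havcr1-undetected (right) proximal tubule-like cells, with a line joining the states of each mouse. For Lrp2 and Dab2 the mice lie further apart than the states, and only the Clcn5 lines fall from left to right in all 4 mice.

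Of all genes tested, 1.78% were called in either direction, 0.454% higher and 1.33% lower in Havcr1-detected cells, so the count of 0 of 6 members lies near the background. At an unadjusted p under 0.05 edgeR passed 0 members and DESeq2 passed 1, Lrp2, with a DESeq2 adjusted p of 0.195. The interval of Lrp2 reaches down to -0.67 and that of Cubn to -0.93, so the test did not exclude a fall of these sizes. With each cell thinned to 1000 UMIs and the states called again from the thinned UMIs, many cells lost their Havcr1 UMI and counted as undetected, which left 23, 9, 130 and 25 detected cells in mice 1 to 4, against 333, 148, 552 and 997 undetected cells. The mean share of cells with a UMI was then 29.9% in detected and 29.6% in undetected cells for Lrp2, 6.11% and 7.81% for Cubn, 17.0% and 9.16% for Amn, 71.8% and 62.5% for Dab2, 14.4% and 5.23% for Clcn5, and 10.5% and 12.0% for Fcgrt. The share for Clcn5 rested on the 9 detected cells of mouse 2, and without that mouse it was 8.13% in detected and 5.40% in undetected cells. Without mouse 2 the order also turned for Lrp2, at 25.1% in detected and 28.2% in undetected cells, and for Fcgrt, at 13.95% and 12.2%. An exact sign permutation test over 4 mice cannot give a p below 0.125, so these shares are given as a description.

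The state comparison changed with where the boundary of the proximal tubule was drawn. With cluster 26 counted among the proximal tubule-like cells, nearly all of it as Havcr1-undetected, Amn rose by 0.56 on the log2 scale (edgeR adjusted p = 0.0479) and Clcn5 by 0.71 (edgeR adjusted p = 0.0353), and the signs of Lrp2, Cubn and Dab2 turned positive at 0.20, 0.40 and 0.60. At clustering resolution 0.5, which redraws the proximal tubule-like clusters, the same 3 genes were also positive, at 0.0069, 0.22 and 0.41. There the proximal tubule-like clusters held 1733 and 1308 cells, and no cluster was led by Ankrd1, Cp, Ncam1 or Cldn1. How many cells of cluster 26 they took in was not counted, so these settings may overlap. In cluster 18 alone, the cluster present in all mice, the log2 fold changes were -0.42 for Lrp2, -0.73 for Cubn, 0.22 for Amn, -0.12 for Dab2, -0.04 for Clcn5 and 0.20 for Fcgrt, none of them called. With Havcr1-detected cells taken from 2 UMIs upward, Lrp2 stood at -0.61 and Cubn at -0.55, not called either. Cluster 18 alone was chosen as a setting after the data had been seen.

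**Figure D5:**
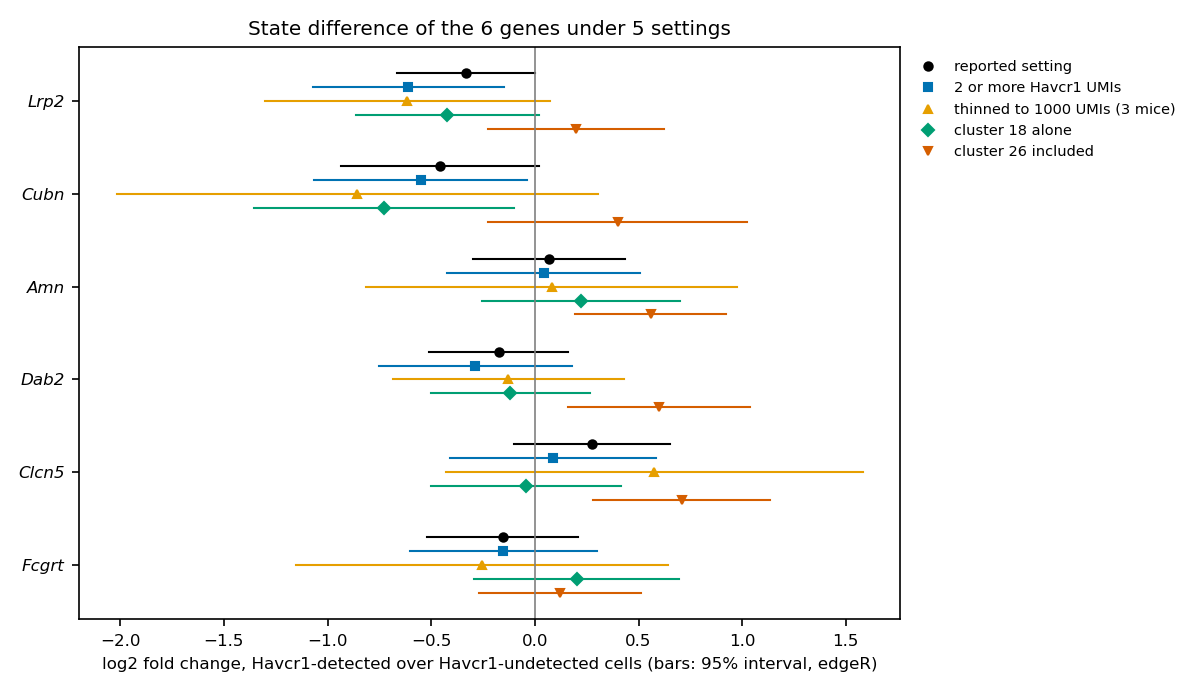
Log2 fold change of the 6 genes, Havcr1-detected over Havcr1-undetected proximal tubule-like cells, with 95% intervals from edgeR under 5 settings, over 4 mice except for the thinned cells, where mouse 2 had under 10 detected cells and 3 mice remained. The intervals of Lrp2 and Cubn lie mostly below 0 except when cluster 26 is included, where 5 of the 6 genes move to higher values than in any other setting shown.

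Of 48 further endocytic genes from the coat to the lysosome, 0 were called higher and 1 lower in Havcr1-detected cells, where 0.454% and 1.33% of all genes were. At an unadjusted p under 0.05 there were 9, and 24 of the 48 had a fold change above 0, with a median log2 fold change of -0.002, against -0.01 for all genes. No gene was called among 5 other receptors and chaperones, 13 clathrin and adaptor genes, 11 acidification genes and 8 lysosomal genes. The 11 genes of early and recycling endosomes had a median of -0.30, with 2 above 0 and 4 at an unadjusted p under 0.05. The called gene among them was Rab5c, which encodes a small GTPase of early endosomes. Rab5c stood at 56.6, 39.9, 170 and 51.9 CPM in detected cells, against 81.4, 87.3, 234 and 80.8 in undetected cells. It was lower in 4 of 4 mice, with a log2 fold change of -0.74 (SE 0.18, edgeR adjusted p = 0.0386), and the call was lost when any 1 of the 4 mice was left out (edgeR adjusted p of 0.0518 to 0.173).

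Of 6 genes listed under cargo, 5 were tested and 2 were called, both lower, Cyp27b1 and Cyp24a1. Of all genes tested, 1.33% were called lower. Megalin takes up vitamin D bound to its carrier protein, and Cyp27b1 encodes the enzyme that activates it while Cyp24a1 encodes the enzyme that breaks it down. Cyp27b1 stood at 15.3, 11.4, 0.830 and 9.72 CPM in Havcr1-detected cells of mice 1 to 4, against 52.9, 81.0, 2.62 and 9.62 in undetected cells. It was lower in mice 1 to 3 and level in mouse 4, with a log2 fold change of -1.99 (SE 0.38, edgeR adjusted p = 0.0102). Cyp24a1 stood at 4.59, 17.1, 93.8 and 13.0 CPM in detected cells, against 12.4, 11.2, 238 and 28.2 in undetected cells. It was lower in 3 of 4 mice, with a log2 fold change of -1.25 (SE 0.26, edgeR adjusted p = 0.0185). In detected cells of mouse 4 a level of 9.72 CPM is 3 UMIs, so the low levels of both genes rest on few molecules. The call of Cyp27b1 was lost without mouse 1 (edgeR adjusted p = 0.112) or mouse 2 (edgeR adjusted p = 0.188) and that of Cyp24a1 without mouse 1 (edgeR adjusted p = 0.0505) or mouse 4 (edgeR adjusted p = 0.063).

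Genes that define the proximal tubule gave a setting for these values. Of 6 transcription factors 2 were lower in Havcr1-detected cells, Hnf4a by a log2 fold change of -0.68 (edgeR adjusted p = 0.0424) and Maf of -0.89 (edgeR adjusted p = 0.0119), each in 4 of 4 mice. Among 18 proximal tubule transporters and enzymes tested, 3 were lower and 1 higher. Of all genes tested, 1.33% were called lower and 0.454% higher. Slc5a12, a lactate transporter, averaged 68.8 ± 46.9 CPM in detected and 215 ± 132 in undetected cells (SD, n = 4), with a log2 fold change of -1.72 (edgeR adjusted p = 2.89e-05), lower in 4 of 4 mice, and it was still called when any 1 mouse was left out. Slc7a7, an amino acid exchanger, was lower as well, with a log2 fold change of -0.996. Atp11a, a marker of segment S3, was higher, by 0.90. Lcn2, a secreted injury protein, was lower in 4 of 4 mice, by a log2 fold change of -1.42 (edgeR adjusted p = 0.00366), and was the only called gene of 11 injury genes tested. The sum of neutrophil markers, given below, was also lower in detected cells of every mouse, and its part in the Lcn2 call was not tested. Calls were lost for Hnf4a when any 1 mouse was left out (edgeR adjusted p of 0.0755 to 0.175), for Maf without mouse 1, 2 or 4 (0.105, 0.069 and 0.0719), for Atp11a without mouse 1, 2 or 3 (0.112, 0.127 and 0.0647), and for Lcn2 without mouse 1 (0.0505).

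Among all called genes that moved the same way in every mouse, the largest rises in Havcr1-detected cells were Vtcn1, Ptpro and Slc6a18, by 1.85, 1.68 and 1.34 on the log2 scale, and the largest falls were Ptgds, Car3 and F5, at -3.49, -2.47 and -2.44. The 3 genes that fell averaged 4.48, 4.30 and 3.58 CPM in detected cells, so their fold changes rest on low counts. The number called was 54 without mouse 1, 47 without mouse 2, 237 without mouse 3 and 73 without mouse 4. Markers of neutrophils moved with the states. The sum of 9 neutrophil markers was 732, 755, 801 and 16.2 CPM in detected cells of mice 1 to 4, against 3524, 2647, 1516 and 117 in undetected cells, lower in every mouse, with between 0 and 6 of the 9 markers at 0 in a sum. The 12 macrophage and monocyte markers summed to 111 to 337 CPM in detected and 76.1 to 425 in undetected cells, and the 8 endothelial markers to 48.9 to 348 in detected and 152 to 326 in undetected cells. The 7 thick ascending limb markers summed to 76.3 to 196 in detected and 102 to 389 in undetected cells, and the 9 T lymphocyte markers to 0 to 266 and 5.67 to 249.7, both highest in mouse 4. The 13 S1 and S2 markers summed to 7639, 7342, 7255 and 4233 in detected cells, against 9120, 9592, 7919 and 5253 in undetected cells, lower in every mouse. The sum of the 7 S3 markers ran the other way in mice 1 to 3. It was 899, 504, 711 and 42.1 CPM in detected cells of mice 1 to 4, against 359, 300.5, 429 and 48.4 in undetected cells. Atp11a alone held 474, 405, 526 and 38.9 CPM of it in detected cells, against 220, 183, 216 and 37.5 in undetected cells. The other S3 markers were mixed, with Slc22a30 higher in detected cells of 3 of 4 mice and Slc7a13 of 1. The part of these sums in the calls was not tested.

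Across classes, the rest of the pathway was not uniformly higher in proximal tubule-like cells. Against other tubular-like cells, 13 of the 48 endocytic genes were called higher and 9 lower, 27.1% and 18.8% of them, where 17.3% and 12.1% of all genes were. Their median log2 difference was 0.24, against 0.10 for all genes. Among receptors and chaperones, Folr1, the folate receptor of the brush border, was higher by 4.81 (SE 0.31) and Lrpap1, the chaperone of megalin in the secretory pathway, by 0.87 (SE 0.21). Of the coat and adaptor genes, Ap2a2 was higher by 0.89 and Picalm by 0.79, whereas Ap2b1 and Gipc1, whose product binds the tail of megalin, differed by -0.42 and -0.55. Of the endosomal genes, Inpp5b, Ehd1 and Eea1 were higher by 2.54, 1.08 and 0.70, while Ocrl, the phosphatase lost in human Lowe syndrome and related to Inpp5b, differed by -0.69.

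Acidification and lysosomal genes were called in both directions. Slc9a3, the apical sodium-proton exchanger NHE3, was higher by 2.96 (SE 0.39), and the proton pump subunits Atp6v1b2 and Atp6v0d1 by 1.60 and 0.63. Lower were Atp6v1a, Atp6ap1, Atp6ap2 and Clcn3, at -0.67, -1.32, -1.04 and -0.53 against a set of classes that includes the proton-secreting intercalated-like cells. The proteases Lgmn and Ctsl were higher by 1.51 and 1.20 and the cystine exporter Ctns by 1.11, while Ctsd and Tfeb differed by -2.47 and -0.64. Against endothelial-like cells 13 pathway genes were higher and 10 lower, 27.1% and 20.8% of them, where 20.4% and 20.2% of all genes were. Against macrophage- and monocyte-like cells 9 were higher and 18 lower, 18.8% and 37.5%, where 22.2% and 24.6% of all genes were. In that last comparison Lrp1, a receptor related to megalin, differed by -4.56 and the cathepsin Ctsb by -1.72, while Myo6, the motor of apical endocytosis, was higher by 5.73.

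Of the cargo genes, 5 of 6 were higher in proximal tubule-like than in other tubular-like cells. Cyp24a1 was higher by 6.48 (SE 0.38) and Cyp27b1 by 5.19 (SE 0.58) on the log2 scale. Gpx3, which encodes a secreted peroxidase, was higher by 4.98 and Tcn2, the carrier of vitamin B12, by 2.12. Rbp4, which encodes a retinol carrier, was higher by 5.09 (SE 1.31) but had few UMIs. It stood at 5.70 CPM in Havcr1-detected cells of mouse 2, at 5.77 in undetected cells of mouse 4 and at 0 in every other state and mouse. Vdr, the vitamin D receptor, was not called, at 0.38 (SE 0.41, edgeR adjusted p = 0.556).

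Over the 13 named classes, the genes whose mean levels followed each member most closely were sought among 14021 genes as Pearson r of log2 means, a description over classes that share libraries. For Lrp2 these were Ces2c, Slc13a1 and BC035947, with r of 0.993, 0.989 and 0.989, and for Amn Gm50435, Gm35281 and Serpina1a, each at 0.990. For Cubn they were Galns, Slc6a13 and Clrn3, at 0.912, 0.908 and 0.899. Lrp2 and Amn followed each other at 0.971, Amn and Cubn at 0.832, Cubn and Lrp2 at 0.818, and Clcn5 and Lrp2 at 0.177. The closest genes to Dab2 were Uap1l1, Nceh1 and Renbp, at 0.837, 0.802 and 0.8003, to Clcn5 Dmxl1, Gm57257 and Mia2, at 0.911, 0.896 and 0.879, and to Fcgrt Sash1, Etv1 and Tmem176b, at 0.852, 0.8292 and 0.824.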

How the data were processed

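Libraries of single cells from 4 mouse kidneys were read as deposited. The authors' files hold whole-number counts of UMIs per gene and barcode, made with Cell Ranger 9.0.1 and Seurat 4.1.1 per the submitters' processing notes; the genome build was not given in the sources used here. Barcodes with under 500 UMIs, under 300 genes or at least 50% mitochondrial UMIs were left out, as were 113 doublets called by Scrublet, a caller that marked 0, 1 and 1 barcodes in mice 1, 3 and 4 and so did not work there. Mitochondrial UMIs removed 1661, 436, 4388 and 383 barcodes of mice 1 to 4. Cells were clustered in scanpy 1.11.5 with 2000 variable genes, 30 components, 15 neighbours and Leiden resolution 1, giving 37 clusters. Intercalated-like, collecting duct-like and the other classes were named from lists of markers. Raw UMIs were summed per mouse and class (10 cells or more) and tested in edgeR 4.0.16 with TMM scaling, filterByExpr and the mouse as a block. DESeq2 1.42.0, other filters, other resolutions and leaving out each mouse were alternatives. In data simulated for the state comparison (9550 genes), 71% of changes of 1 and 93% of changes of 2 on the log2 scale were recovered with 3.53% false calls. In data simulated for the comparison with other tubular-like cells (18187 genes) the shares were 23% and 65%, with 8.33% false calls. The simulated counts were drawn with the fitted dispersions alone, without the further spread of single genes that the quasi-likelihood test estimates. They may therefore be less spread than the data.

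The mouse pairs the sums because both states come from the same animal. Over 1842 genes, deviations of the 2 states of a mouse correlated at 0.788, 0.851, 0.913 and 0.948 in mice 1 to 4. Between mice 1 and 2 they correlated nearly as well, at 0.758 and 0.763, and between all other mice at -0.709 to -0.242. The 6 genes, the lists and the marker sets were chosen with earlier results of these data known. Genes named are the 6 members, called genes of the lists, the 3 largest rises and falls among called genes of 1 direction in every mouse, and the 3 genes most like each member; 1 called gene of the lists is not reported here. Intervals and levels cover counting and mouse-to-mouse error only.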

Additional observations from a re-analysis of the deposited data

Results flagged for a closer look

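In 75 groups of 4 mice with at least 20 UMIs, the gap of the highest or lowest mouse to the next was set against the range of the group as in Dixon's test at the 95% level, and 7 groups exceeded its critical value. Chance alone flags about 1 in 20 groups. Cubn in macrophage- and monocyte-like cells of mouse 4 was 21.0 CPM, against 1.01 to 4.37 in the other mice, whose mean is 2.87. Cubn in T lymphocyte-like cells of mouse 4 was 8.72 CPM, against 0.274 to 0.824 in the others, whose mean is 0.550. Clcn5 in endothelial-like cells of mouse 4 was low at 6.23 CPM, against 14.9986 to 16.8 in the others. Fcgrt in distal convoluted tubule-like cells of mouse 4 was high at 80.9 CPM, from 42 UMIs, against 50.9 to 52.5 in the others. Dab2 in neutrophil-like cells of mouse 3 was 76.4 CPM, against 7.79 to 14.8 in the others, and most of the neutrophil-like cells of mouse 3 lie in a cluster led by Camp, Ngp and Ltf. Dab2 in B lymphocyte- and plasma-like cells of mouse 1 was 307 CPM, from 19 UMIs, against 13.8 to 38.8 in the others. Lrp2 in collecting duct- and connecting tubule-like cells of mouse 3 was 8.32 CPM, from 15 UMIs, against 1.89 to 2.58 in the others.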

How the results depend on the processing

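The 5 members higher in proximal tubule-like than in other tubular-like or endothelial-like cells stayed at 5 under 11 alternatives each (5 to 5 when a mouse was left out), and those against macrophage- and monocyte-like cells numbered 4 to 5. Between the Havcr1 states no member was called under 14 of 15 alternatives (0 to 0 when a mouse was left out), and 2 were called with cluster 26 included. Genes called between the states numbered 513 with no filter on low counts, 100 at 1000 UMIs a cell, 888 at resolution 0.5, 75 from 2 Havcr1 UMIs, 1324 with cluster 26 included, 13 in cluster 18 alone and 47 to 237 when a mouse was left out. Without the replicate block, which ignores that both states share a mouse, 1 gene and 0 pathway genes were called. Havcr1, whose difference is fixed by the states, was not left out of these counts of genes. Pathway genes called numbered 2 with DESeq2 and with no filter, 3 at resolution 0.5 and with cluster 26 included, 0 from 2 Havcr1 UMIs and in cluster 18 alone, and 0 to 2 when a mouse was left out. Of single-gene values, 352 kept direction and call, 64 lost the call, 2 gained it and 14 changed sign. Of these 14, 12 were state differences of members, none of them called. Lrp2, Cubn and Dab2 were at 0.0069, 0.22 and 0.41 with resolution 0.5 and at 0.20, 0.40 and 0.60 with cluster 26 included. Fcgrt was at 0.12 with cluster 26 included, 0.20 in cluster 18 alone and -0.29 to 0.021 when a mouse was left out, above 0 without mouse 3. Amn was at -0.011 to 0.28 when a mouse was left out, below 0 without mouse 2 and, at -0.0038, without mouse 1, and Clcn5 at -0.043 in cluster 18 alone. Hnf4a was at 0.070 with cluster 26 included, and Clcn5 against other tubular-like cells at -0.061 with resolution 0.5. The cause was not tested. Rab5c and Maf were each called in 7 of 15 alternatives, Hnf4a in 5, Cyp27b1 in 7 of 13 and Cyp24a1 in 6 of 12, Atp11a in 9, Lcn2 in 10, Slc7a7 in 11 and Slc5a12 in 14 of 15. DESeq2 moved the median log2 difference of all genes to 0.21 against endothelial-like cells, where edgeR gave -0.02, and to 0.22 against macrophage- and monocyte-like cells, where edgeR gave -0.10. Depth limits Cubn, Amn and Clcn5 most, with 825, 1075 and 787 UMIs over all proximal tubule-like cells, and the 39 Havcr1-detected cells of mouse 2.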

Other observations

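Barcodes left out for a mitochondrial share of at least 50% held higher levels of Lrp2 and Amn than the kept cells. Counting nuclear UMIs alone, the level of Lrp2 in these barcodes was 7.42, 10.3, 13.0 and 2.71 times that of all kept cells in mice 1 to 4, and the level of Amn 9.91, 9.32, 12.3 and 9.46 times. Cubn was at 5.19, 4.01 and 12.3 times in mice 1 to 3, and had 0 UMIs in the 383 barcodes removed from mouse 4. Dab2 was less raised, at 1.60, 1.55, 2.35 and 0.508 times. The ratios of mouse 4 rest on few molecules, with 5 UMIs of Lrp2, 8 of Amn and 6 of Dab2 in its removed barcodes. The kept cells are of all classes, so these ratios compare mixtures, and the class of the removed barcodes was not tested.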
